A study of Ambystoma mexicanum with 3 samples.

Results

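*Lep* (LEP in the files) encodes leptin, a secreted cytokine, and *Socs1* (SOCS1) encodes an intracellular inhibitor of cytokine signalling. The data on both genes were taken from single nuclei RNA-Seq of axolotl (*Ambystoma mexicanum*) embryo tail tips. Members were all features whose symbol was *Lep* or *Socs1*: 1 feature for *Lep* and 2 features for *Socs1*, 3 of the 91648 features counted and 2 of 16033 symbols. Both genes were chosen with their levels in these libraries known, so the levels and ratios between libraries are given as a description.

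The study compared tail tissue at the time of amputation (0 HPA, hours post amputation) with tissue at 6 HPA, with and without romidepsin, an inhibitor of histone deacetylases. Embryos were of stage 42, and 2 mm of the tail was removed. For Cont 6 HPA, embryos were kept in rearing water without drug, and for Rom 6 HPA they were kept in 10 μM romidepsin. At 6 HPA, 1 mm of tail tip from 100 pooled embryos per treatment went into each library, and the number of embryos at 0 HPA is not given in the sources used here. Each condition has 1 library, so the data hold no replicate of any condition and no test between conditions was made. The labels give the later time in days, whereas the study's text and design give hours, and hours are used here.

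Leptin circulates in vertebrates and binds a class I cytokine receptor that carries the kinase Jak2. Jak2 phosphorylates the receptor and Stat3, which enters the nucleus and activates genes that include *Socs3*. Socs proteins close the loop, since they bind Janus kinases or receptors and shut signalling down, and *Socs1* is best known as the inhibitor of interferon signalling. In mammals leptin is known as an adipose hormone, and in zebrafish *lepb* is known for induction in regenerating fin and heart.

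The deposited tables identify features by number and symbol. The sequences below are the parts of the Nanostring targets with which the study probed the same genes, and they are printed to identify the transcripts meant by each name. For *Lep*, the first 30 of the 100 bases targeted are given. For *Socs1*, 48 of 100 bases are given, which end with the first in-frame stop codon, at bases 46 to 48, in capitals. Whether the *Socs1* target belongs to the one or the other *Socs1* feature was not tested.
*Lep* target: attaattgtgaggcactgcaagttatactt
*Socs1* target: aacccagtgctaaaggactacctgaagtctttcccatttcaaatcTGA

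The library of 0 HPA held 31522 nuclei, that of Cont 6 HPA 56936 and that of Rom 6 HPA 44735. The study's text gives the numbers of the 6 HPA libraries the other way round. The labels were used, and every direction between the 6 HPA libraries rests on them. Total UMIs (unique molecular identifiers, each counting 1 captured RNA molecule) were 42537606, 105765943 and 58827729, and the median nucleus held 1019, 1623 and 1079 UMIs, so that Cont 6 HPA was the deepest. Between 469 and 736 barcodes were shared by each pair of libraries. Levels are given as CPM, the UMIs of a gene per 1000000 UMIs of the library or group of nuclei, with 95% intervals that cover counting error only. Where 3 values follow each other, the first is that of 0 HPA, the second that of Cont 6 HPA and the last that of Rom 6 HPA. The 15 fibroblast markers that were matched to a symbol summed to 5620.1, 6056 and 6876 CPM across the 3 libraries, and the 9 muscle markers summed to 1457, 1113 and 1419 CPM. *Col6a3* and *Dchs1* of the fibroblast list were at 0.

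*Lep* was nearly undetected at amputation and was found in few nuclei, at a higher level, at 6 HPA. At 0 HPA it had 5 UMIs in 31522 nuclei, or 0.118 CPM (0.0382 to 0.274). In Cont 6 HPA it had 1000 UMIs, or 9.45 CPM (8.88 to 10.1). In Rom 6 HPA it had 202 UMIs, or 3.43 CPM (2.98 to 3.94). The intervals of the 3 libraries did not overlap, and Rom 6 HPA lay between the others. The level in Cont 6 HPA was 80.4-fold that at 0 HPA (34.4 to 248), and with romidepsin it was 2.75-fold lower (2.36 to 3.22) than without. *Lep* in Rom 6 HPA was still 29.2-fold the level at 0 HPA (12.3 to 90.9).

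*Socs1* was present before injury and differed less. Its level was 5.67 CPM (4.97 to 6.43) at 0 HPA, from 241 UMIs. It was 16.4 CPM (15.7 to 17.2) in Cont 6 HPA, from 1739 UMIs, and 8.70 CPM (7.97 to 9.49) in Rom 6 HPA, from 512 UMIs. The order of the libraries was that of *Lep*, again without overlap of the intervals. Cont 6 HPA was 2.90-fold higher than 0 HPA (2.53 to 3.33), and Rom 6 HPA was 1.89-fold lower than Cont 6 HPA (1.71 to 2.09) and 1.54-fold higher than 0 HPA (1.32 to 1.80).

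**Figure D1:**
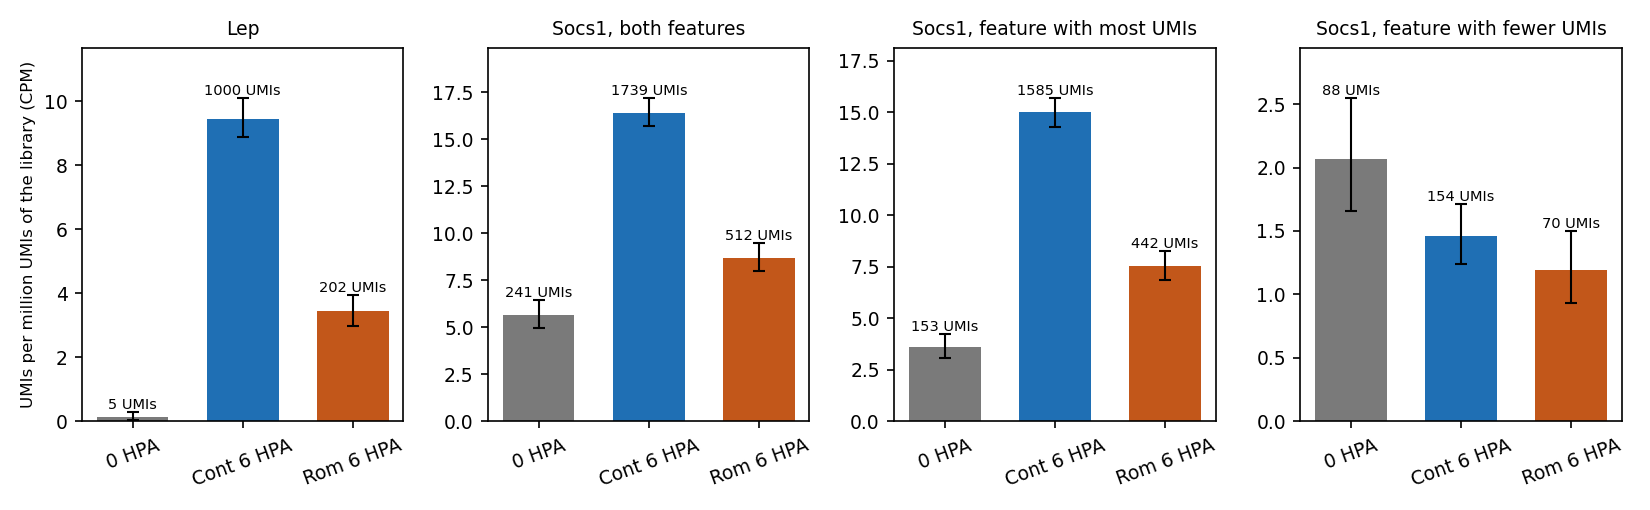
Level of *Lep* and *Socs1* in each library, as UMIs per 1000000 UMIs of the library, with exact Poisson 95% intervals and the number of UMIs above each bar; each panel has its own axis from 0. *Lep* and the *Socs1* feature with most UMIs were highest in Cont 6 HPA, while the *Socs1* feature with fewer UMIs was highest at 0 HPA (2.07 CPM).

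A ratio was counted as past 2-fold where a symbol had at least 50 UMIs in both libraries together. From 0 HPA to Cont 6 HPA both genes passed upward, as did 1.29% of the 10258 symbols compared. *Lep* had the highest ratio of all, with a log2 ratio of 6.33 beside a median of −0.22 over all symbols, and *Socs1* ranked 59 with 1.54. From Cont 6 HPA to Rom 6 HPA *Lep* passed downward, with a log2 ratio of −1.46, as did 0.397% of 10332 symbols. *Socs1*, at −0.92, did not reach 2-fold. *Lep* was the 9th lowest and *Socs1* the 61st lowest of these symbols. From 0 HPA to Rom 6 HPA *Lep* passed upward (4.87), as did 1.68% of 9904 symbols, and *Socs1* did not (0.62). Since the genes were chosen for these ratios, the ranks are a description of the choice.

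The *Socs1* total joined features with opposite directions. The feature AC_02200013956.1 had 153, 1585 and 442 UMIs across the 3 libraries, or 3.60 CPM (3.05 to 4.21), 14.3 to 15.7 CPM as the interval in Cont 6 HPA, and 7.51 CPM (6.83 to 8.25). The feature AC_02200027047.1 had 88, 154 and 70 UMIs, or 2.07, 1.46 and 1.19 CPM. The former was 4.17-fold higher in Cont 6 HPA than at 0 HPA (3.53 to 4.95) and the latter 1.42-fold lower (1.08 to 1.86). With romidepsin the former was 1.99-fold lower (1.79 to 2.22), whereas for the latter the interval of the log2 ratio, −0.72 to 0.13, included 0. RefSeq lists 1 *Socs1* gene for the axolotl assembly UKY_AmexF1_1, and whether both features come from it was not tested.

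The share of nuclei with a UMI was compared after each nucleus was thinned to 950 UMIs, because a deeper nucleus is more likely to hold any gene. A *Lep* UMI was then found in 0.00696% of nuclei at 0 HPA (2 of 28722), in 0.813% of those in Cont 6 HPA (462 of 56835) and in 0.301% of those in Rom 6 HPA (134 of 44545). Without thinning the shares were 0.0159%, 1.54% and 0.416%. For *Socs1* the thinned shares were 0.463%, 1.34% and 0.797%, and those without thinning were 0.752%, 2.82% and 1.12%. The order of the libraries was the same on both scales. Thinning left out 2800, 101 and 190 nuclei.

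To find the nuclei that carried each transcript, nuclei were clustered without *Lep*, *Socs1*, *Has2* and the genes of cytokine signalling. Of 133193 nuclei, 114701 fell into 6 clusters near the median depth of their library, with at most 1 listed marker above 2-fold, and these stayed unnamed (shallow clusters). Clusters with a median depth over 1.3 times that of their library were clustered again, and the clusters of this second round are called deep. One of them, deep cluster 13, held 75 nuclei with a median depth of 0.65 times that of their library. In all, 14997 nuclei could be named. The fibroblast-like class had 1078, 912 and 1028 nuclei across the 3 libraries, and was named by *Lrp1*, *Pdgfra*, *Sox5*, *Col5a1*, *Gpr124* and *Twist2*. Another 3 fibroblast markers of the list were lower in this class than elsewhere in every library. The collagen *Col1a1* was at 1366, 1543 and 1899 CPM there, beside 2493, 2816 and 3401 elsewhere, *Col1a2* at 1277, 1138 and 1316 beside 2109, 2057 and 2287, and the proteoglycan *Dcn* at 66.5, 61.6 and 65.2 beside 107, 104 and 108. *Col3a1*, *Lum* and *Fbn1* were not 2-fold higher in the class in any library. The name thus rests on part of the list. The muscle-like class had 862, 834 and 1040 nuclei, with *Dmd*, *Ttn*, *Neb*, *Ryr1*, *Mypn* and *Cacna1s* as markers of its main clusters. Of the rest of the muscle list, *Tnnt3* was at 6.48, 8.72 and 8.25 CPM there, beside 7.07, 7.23 and 7.62 elsewhere. *Actn2* was at 0.762, 0.281 and 0.660 CPM beside 0.451, 0.665 and 0.376. *Myh3* was at 1.52, 1.12 and 0.660 CPM beside 0.476, 0.137 and 0.251. This name, too, rests on part of its list.

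Among the named classes *Lep* was highest in fibroblast-like nuclei at 6 HPA. No *Lep* UMI was found in the 1078 fibroblast-like nuclei at 0 HPA, whereas the class had 171 in Cont 6 HPA and 46 in Rom 6 HPA. These counts correspond to 0, 53.5 (45.8 to 62.1) and 19.7 CPM (14.5 to 26.3). Against 3 UMIs set as the floor at 0 HPA, the level in Cont 6 HPA was 42.1-fold higher and that in Rom 6 HPA 15.5-fold higher. These values have no interval, and the upper limit at 0 HPA was 1.56 CPM. Fibroblast-like nuclei exceeded all other nuclei of their library 6.62-fold (5.58 to 7.81) in Cont 6 HPA and 7.15-fold (5.03 to 9.99) in Rom 6 HPA. They held 17.1% of the *Lep* UMIs of Cont 6 HPA with 3.02% of all UMIs, and 22.8% in Rom 6 HPA with 3.96%.

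The other classes had lower *Lep* levels in Cont 6 HPA. The unnamed deep cluster 6, in which fibroblast and endothelial markers were equally many, had 20.2 CPM (13.8 to 28.5). Below it stood erythrocyte-like nuclei with 13.1 CPM (5.25 to 26.9), notochord-like with 8.82, the shallow clusters with 8.29 (7.69 to 8.94), basal epidermis-like with 7.40, deep cluster 5 with 7.19 and ciliated-like with 6.72. Epithelial-like, neural-like and muscle-like nuclei were at 4.80, 4.71 and 4.22 CPM. From deep cluster 6 downward each neighbour in this order overlapped the next within counting error. Deep cluster 12 had 1 *Lep* UMI, and deep cluster 13, with 21 nuclei and 2 *Lep* UMIs in Cont 6 HPA, had an interval of 12.2 to 364 CPM and could not be placed.

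*Lep* was lower in Rom 6 HPA than in Cont 6 HPA both in fibroblast-like nuclei and outside them. The level in Rom 6 HPA was 2.71-fold lower than in Cont 6 HPA in fibroblast-like nuclei, with a log2 ratio of −1.44 (−1.94 to −0.96), and 2.93-fold lower outside them, with −1.55 (−1.81 to −1.30). The shallow clusters together had 4, 692 and 120 *Lep* UMIs, and the level in Rom 6 HPA was 2.90-fold lower than in Cont 6 HPA. By cluster it ran from 2.07-fold lower in shallow cluster 3 to 14.0-fold lower in shallow cluster 9, the latter from 19 and 1 UMIs. In shallow cluster 4, which had 804, 11126 and 4599 nuclei across the 3 libraries, it was 5.14-fold lower. The intervals of these clusters overlapped. Epithelial-like nuclei had 22 and 13 UMIs, or 4.80 and 3.94 CPM, and the interval of their log2 ratio (−1.40 to 0.77) included 0. None of these differences between classes was tested.

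*Lep* UMIs were concentrated in few fibroblast-like nuclei. In Cont 6 HPA, 826 fibroblast-like nuclei had no *Lep* UMI, 42 had 1, 20 had 2 and 24 had 3 or more. In Rom 6 HPA, 997 had none, 20 had 1, 7 had 2 and 4 had 3 or more. The intervals of the *Lep* levels and ratios treat each UMI as independent, so for this class they may be too narrow. After thinning, 2.99% of fibroblast-like nuclei in Cont 6 HPA had a *Lep* UMI (27 of 903, exact interval 1.98 to 4.32%). The share was 0.363% (0.0749 to 1.06%) in muscle-like nuclei and 0.599% (0.0152 to 3.29%) in erythrocyte-like nuclei, which were taken as background. The median depths before thinning were 3364, 3591 and 2924 UMIs. The fibroblast-like share lay above that of muscle-like nuclei beyond counting error, but its interval overlapped that of the 167 erythrocyte-like nuclei. The erythrocyte-like class was named by *Slc4a1*, *Tfr2*, *Alas2*, *Sptb* and *Gata1*, while *Ank1* of its list was at 0 there. In this class *Jak2* was at 203, 237 and 255 CPM, beside 22.0, 15.1 and 18.5 CPM in the libraries. Whether the class is a neutral background was not tested.

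The level in fibroblast-like nuclei depended on how they were delimited. Without the 6% of nuclei with most UMIs in each library, it was 29.0 CPM in Cont 6 HPA, beside 9.24 CPM elsewhere. When nuclei were grouped by their UMIs of marker genes instead of by clusters, 44684 nuclei of Cont 6 HPA counted as fibroblast and their level was 10.2 CPM, beside 7.13 CPM elsewhere. These were most of the 56936 nuclei of the library, which as a whole was at 9.45 CPM. The class from clusters had 912 nuclei there, so the marker grouping is not a like delimitation of it.

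**Figure D2:**
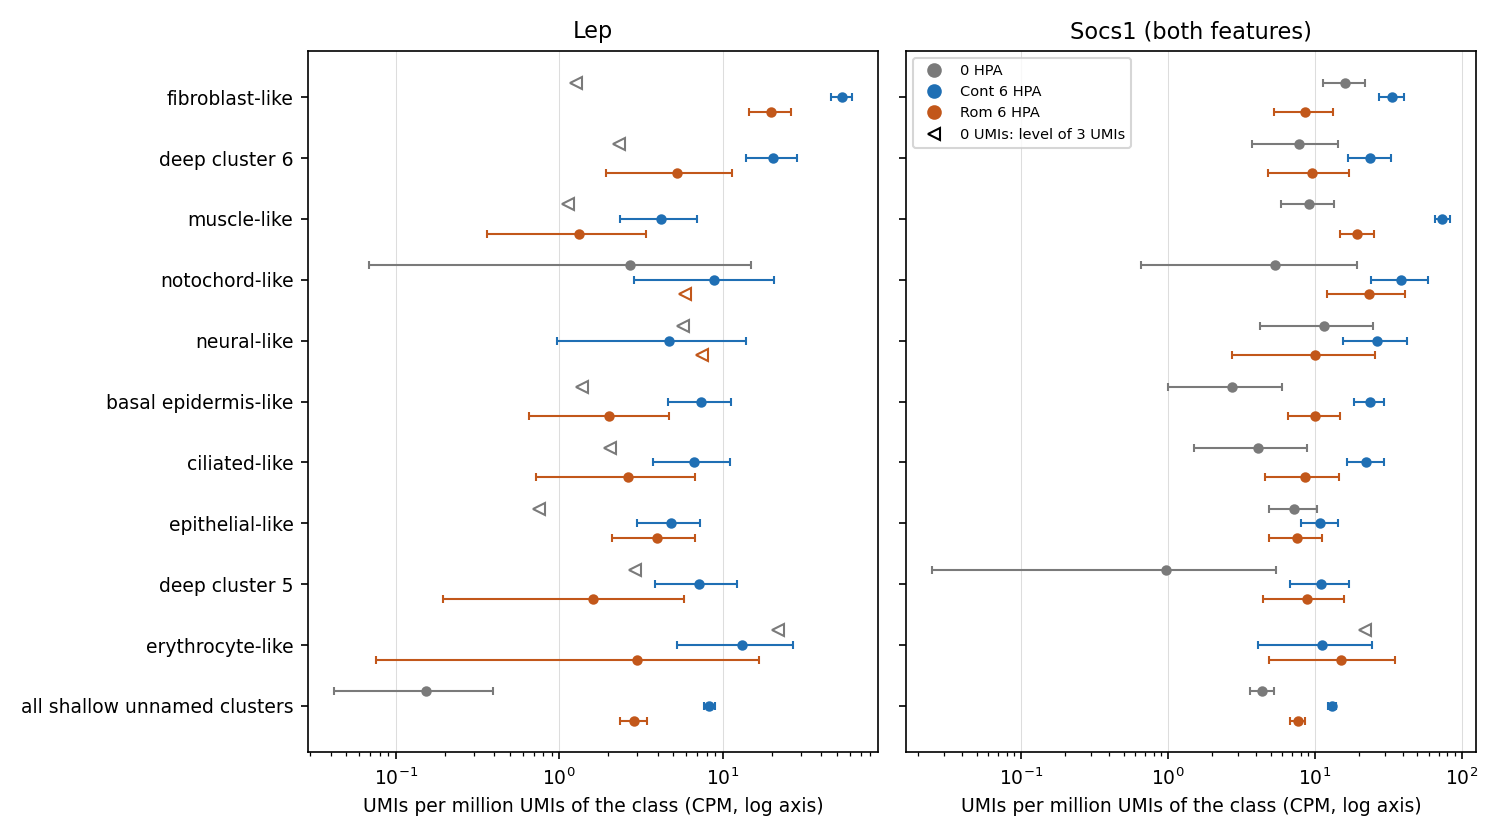
Level of *Lep* and *Socs1* in each class of nuclei and library, as UMIs per 1000000 UMIs of the class on a log axis, with exact Poisson 95% intervals; open triangles mark classes without a UMI, drawn at the level of 3 UMIs. Among the named classes of Cont 6 HPA, *Lep* was highest in fibroblast-like nuclei (53.5 CPM) and *Socs1* in muscle-like nuclei (73.9 CPM).

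*Socs1* was distributed otherwise and was highest in muscle-like nuclei of Cont 6 HPA. The class had 24, 263 and 59 *Socs1* UMIs, or 9.14 (5.86 to 13.6), 73.9 (65.3 to 83.4) and 19.5 CPM (14.8 to 25.1). In Cont 6 HPA the level was 8.09-fold that at 0 HPA (5.32 to 12.8), whereas outside the class it was 2.66-fold (2.30 to 3.08). With romidepsin it was 3.80-fold lower, with a log2 ratio of −1.93 (−2.36 to −1.51), and outside the class 1.78-fold lower, with −0.83 (−0.99 to −0.68). The intervals inside and outside the class did not overlap for either ratio. For AC_02200013956.1 alone, the level in Cont 6 HPA was 8.79-fold that at 0 HPA in the class (5.68 to 14.3). Outside the class it was 3.94-fold (3.29 to 4.76). For this feature it was 12.4-fold in basal epidermis-like nuclei, 10.6-fold in ciliated-like nuclei and 8.13-fold in deep cluster 6. These values rest on 4, 3 and 3 UMIs at 0 HPA. The remaining classes with a ratio were lower, with 4.90-fold in fibroblast-like nuclei. The lower level with romidepsin was not particular to muscle-like nuclei. In fibroblast-like nuclei *Socs1* was at 16.1, 33.5 and 8.58 CPM, and Rom 6 HPA was 3.90-fold lower than Cont 6 HPA (log2 ratio −1.96, −2.73 to −1.26). It was 2.62-fold lower in ciliated-like nuclei, 2.49-fold lower in deep cluster 6 and 2.34-fold lower in basal epidermis-like nuclei, with intervals of the log2 ratio below 0. Muscle-like nuclei exceeded all other nuclei of their library 1.68-fold at 0 HPA (1.05 to 2.57), 5.12-fold in Cont 6 HPA (4.47 to 5.84) and 2.40-fold in Rom 6 HPA (1.80 to 3.15). The excess of muscle-like nuclei was the highest among the classes in Cont 6 HPA. In the other libraries another class had a higher value, with an interval that overlapped that of muscle-like nuclei. At 0 HPA fibroblast-like nuclei exceeded the rest 3.18-fold (2.19 to 4.52), and in Rom 6 HPA notochord-like nuclei did so 2.73-fold (1.40 to 4.82, from 12 UMIs). Most of the fibroblast-like *Socs1* UMIs at 0 HPA came from the feature with fewer UMIs.

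Across the remaining classes with at least 6 *Socs1* UMIs in Cont 6 HPA, its level ran from 38.8 CPM (24.3 to 58.8) in notochord-like and 33.5 (27.4 to 40.4) in fibroblast-like nuclei to 10.9 CPM (8.10 to 14.4) in epithelial-like nuclei. Neural-like (26.7), deep cluster 6 (23.9), basal epidermis-like (23.6) and ciliated-like nuclei (22.4) lay between, and neighbours among these did not differ beyond counting error. The shallow clusters had 13.1 CPM (12.3 to 13.9), with erythrocyte-like nuclei and deep cluster 5 at 11.2 and 11.1 CPM. Deep cluster 12 had 4 UMIs, or 6.20 CPM (1.69 to 15.9), and the 21 nuclei of deep cluster 13 had none (upper bound 186 CPM). The ratio of Cont 6 HPA to 0 HPA was 8.61-fold in basal epidermis-like nuclei (3.76 to 24.3, from 6 and 70 UMIs) and 1.51-fold in epithelial-like nuclei (0.935 to 2.47, from 29 and 50 UMIs).

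Most muscle-like nuclei with *Socs1* held a single UMI. In Cont 6 HPA, 648 had none, 135 had 1, 33 had 2 and 18 had 3 or more, whereas in Rom 6 HPA 986 had none and 50, 3 and 1 nuclei had 1, 2 and 3 or more. After thinning, 5.80% (4.31 to 7.62%) of muscle-like nuclei in Cont 6 HPA had a *Socs1* UMI, beside 0 of 167 erythrocyte-like nuclei (upper bound 2.18%). In Rom 6 HPA the share was 2.66% (27 of 1016), beside 3.45% (5 of 145) in erythrocyte-like nuclei, and so was not above this background. Before thinning, the erythrocyte-like class held 6 *Socs1* UMIs in Cont 6 HPA and 5 in Rom 6 HPA, so this background is poorly determined. Its *Socs1* level in Rom 6 HPA was 1.73-fold that of all other nuclei (0.560 to 4.07). The summed CPM of the 9 matched myeloid markers was 9.62, 13.5 and 15.3 across the 3 libraries, with *Spi1* at 0, and no cluster was named myeloid-like. The part of these cells in the *Socs1* levels was not tested.

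The *Socs1* features separated by class. In muscle-like nuclei nearly all *Socs1* UMIs came from AC_02200013956.1, with 22, 262 and 58 UMIs across the 3 libraries, and AC_02200027047.1 had 2, 1 and 1. In fibroblast-like nuclei AC_02200027047.1 had 27, 34 and 8 UMIs, or 11.4 (7.53 to 16.6), 10.6 (7.36 to 14.9) and 3.43 CPM, beside 11, 73 and 12 UMIs of AC_02200013956.1. Of all UMIs of AC_02200027047.1, 30.7%, 22.1% and 11.4% lay in fibroblast-like nuclei across the 3 libraries, beside 5.55%, 3.02% and 3.96% of the UMIs of all genes. In these nuclei it did not differ beyond counting error between 0 HPA and Cont 6 HPA (log2 ratio −0.10, −0.88 to 0.68), and was lower in Rom 6 HPA than in Cont 6 HPA (−1.63, −2.95 to −0.49).

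**Figure D3:**
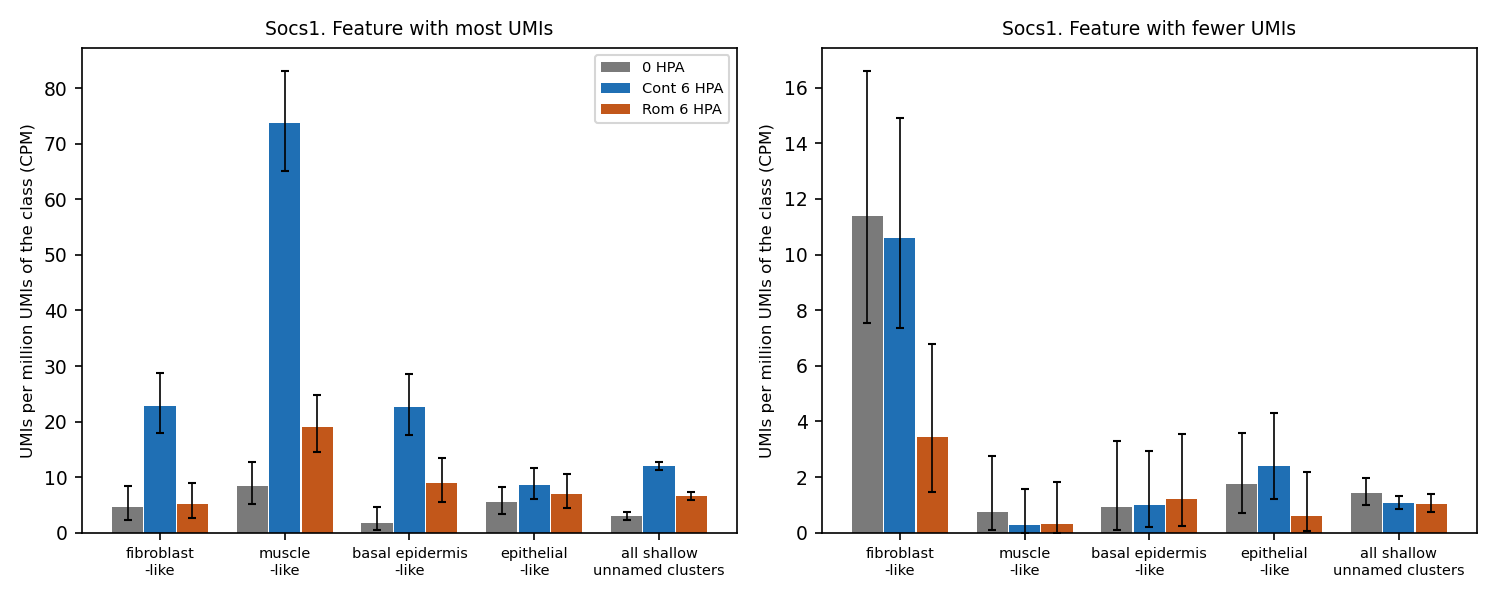
Level of each *Socs1* feature in 5 groups of nuclei and 3 libraries, as UMIs per 1000000 UMIs of the group with exact Poisson 95% intervals; the axes start at 0 and differ between panels. The feature with most UMIs was highest in muscle-like nuclei of Cont 6 HPA (73.7 CPM), and the feature with fewer UMIs in fibroblast-like nuclei of 0 HPA (11.4 CPM) and Cont 6 HPA (10.6 CPM).

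The balance of the genes separated the classes further. In Cont 6 HPA there were 1.60 *Lep* UMIs per *Socs1* UMI in fibroblast-like nuclei (1.25 to 2.05) and 0.0570 in muscle-like nuclei (0.0315 to 0.0958). In Rom 6 HPA the values were 2.30 (1.33 to 4.10) and 0.0678 (0.0179 to 0.183), in the same order. The 5 largest shallow clusters were close to each other in Cont 6 HPA, from 0.549 to 0.672, and the small shallow cluster 9 had 1.58 from 19 and 12 UMIs. In Rom 6 HPA the same 5 clusters spread more widely, from 0.182 (0.0739 to 0.390) to 0.462 (0.289 to 0.722), with overlapping intervals. Free RNA shared by all nuclei would hold the genes in one such ratio, and its part in the shallow clusters was not tested.

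**Figure D4:**
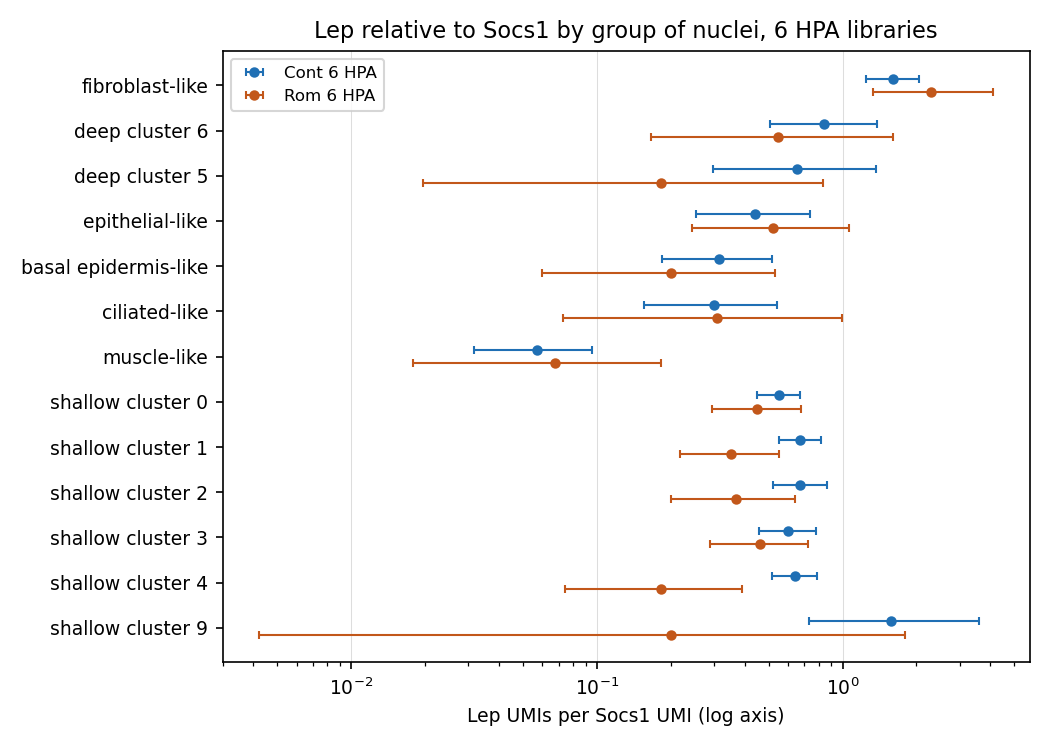
*Lep* UMIs per *Socs1* UMI in 13 groups of nuclei of the 6 HPA libraries, on a log axis with exact 95% intervals. Fibroblast-like nuclei (1.60 in Cont 6 HPA) and muscle-like nuclei (0.0570) stood at the ends of the deep classes drawn, and 5 of the 6 shallow clusters lay between 0.549 and 0.672 in Cont 6 HPA and between 0.182 and 0.462 in Rom 6 HPA.

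*Socs1* was found in nuclei with and without *Lep* in shares that did not differ beyond counting error. Among thinned nuclei of Cont 6 HPA, 6 of 462 nuclei with a *Lep* UMI had a *Socs1* UMI (0.478 to 2.81%), beside 1.34% of those without (753 of 56373). For the fibroblast-like nuclei among them the numbers were 2 of 27 (0.910 to 24.3%) and 27 of 876 (3.08%). With so few nuclei only a large difference could have been seen. *Has2*, the hyaluronan synthase studied with *Lep* in the same embryos, was found in 4.11% of nuclei with a *Lep* UMI (19 of 462, 2.49 to 6.35%) and in 1.81% of those without. Within fibroblast-like nuclei of Cont 6 HPA, *Has2* was found in 10 of 27 nuclei with a *Lep* UMI (37.0%, 19.4 to 57.6%) and in 8.68% of those without (76 of 876). *Has2* had 4.61, 23.2 and 4.27 CPM across the 3 libraries, and its level in Rom 6 HPA did not differ from that at 0 HPA beyond counting error (log2 ratio −0.11, −0.39 to 0.17).

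The genes around leptin signalling were read from lists of 105 ligands, receptors, kinases, Stat factors, inhibitors and targets, of which 81 matched a symbol with a feature. The leptin receptor *Lepr* was not among the matched symbols, and its level was not analysed here. From 0 HPA to Cont 6 HPA, 9 of the 47 listed genes with enough UMIs were past 2-fold upward and 0 downward, beside 1.29% of all symbols upward and 3.04% downward. Their median log2 ratio was −0.16, beside −0.22 over all symbols. *Lep* and *Socs1*, chosen with these ratios known, are among the 9, so part of this count follows from the choice. The lists themselves were also chosen with earlier results of these data known, so the count is a description.

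Of the 4 ligands with enough UMIs, *Lep*, *Il11* and *Cntf* were past 2-fold higher in Cont 6 HPA, beside 1.29% of all symbols. *Il11*, a cytokine that signals through *Il6st*, had 1, 78 and 31 UMIs across the 3 libraries, or 0.0235, 0.737 and 0.527 CPM. *Cntf*, a neurotrophic cytokine, had 77, 436 and 192 UMIs, or 1.81, 4.12 and 3.26 CPM. *Clcf1*, another ligand of the *Cntf* receptor, had 48, 76 and 50 UMIs and passed in no comparison. With romidepsin, *Lep* was the only 1 of 4 ligands with enough UMIs past 2-fold lower, beside 0.397% of all symbols. It was chosen with this ratio known.

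Few genes of the receiving side of the pathway had enough UMIs to be compared. No receptor out of 8, no kinase out of 2 and no Stat factor out of 3 with enough UMIs passed 2-fold from 0 HPA to Cont 6 HPA, which at 1.29% upward and 3.04% downward over all symbols is no result about these genes. *Il10rb*, a receptor of the interleukin 10 family, had 24, 33 and 18 UMIs and was 1.81-fold lower in Cont 6 HPA than at 0 HPA (log2 ratio −0.85, −1.66 to −0.03). It was chosen after its values were seen. The growth hormone receptor *Ghr* was at 103, 104 and 108 CPM, *Il4r* at 42.3, 39.4 and 38.5 CPM, *Lifr* at 18.0, 17.9 and 18.5 CPM, and *Ifnar1* at 14.3, 12.8 and 11.7 CPM. *Jak2*, the kinase on the leptin receptor, was at 22.0, 15.1 and 18.5 CPM, *Tyk2* at 17.0, 13.2 and 14.3 CPM, and *Stat2* at 17.4, 15.5 and 16.0 CPM. *Stat3*, the main factor downstream of leptin, had only 13, 17 and 14 UMIs, *Il6st* had 8, 26 and 11, and *Jak1* had none in any library. How well these features capture their transcripts was not tested, and low counts are not read here as absence.

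Among 13 inhibitors with enough UMIs, *Socs1* and *Socs3* were past 2-fold higher in Cont 6 HPA than at 0 HPA, beside 1.29% of all symbols. *Socs1* was chosen with this ratio known, so the count is a description. *Socs3*, a target of Stat3 that inhibits leptin receptor signalling, had 153, 6141 and 1725 UMIs, or 3.60, 58.1 and 29.3 CPM. It was 16.1-fold higher in Cont 6 HPA than at 0 HPA and 1.98-fold lower with romidepsin than without, and thus just short of 2-fold. *Socs1* was 1.89-fold lower with romidepsin, and its log2 ratio was −0.75 in thinned nuclei. *Cish*, a related inhibitor, went the other way with romidepsin, with 7.08, 12.2 and 18.1 CPM. *Socs5* was at 34.7, 29.9 and 47.4 CPM, and the phosphatases *Ptpn2* (37.1, 29.2 and 30.9 CPM) and *Ptpn11* (43.3, 33.7 and 35.9 CPM) passed in no comparison.

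Of the 12 listed targets of Stat3 and the 5 of interferon with enough UMIs, 0 were past 2-fold lower with romidepsin, beside 0.397% of all symbols, so that this count is no result about the targets. *Junb*, a subunit of the AP-1 factor, was at 11.5, 42.1 and 68.1 CPM, *Timp1*, an inhibitor of metalloproteinases, at 5.17, 22.6 and 33.1 CPM, and *Irf1*, an interferon response factor, at 4.70, 11.5 and 22.7 CPM. All 3 were past 2-fold higher in Cont 6 HPA than at 0 HPA and higher still in Rom 6 HPA. *Bcl3*, with 9, 57 and 32 UMIs, was at 0.212, 0.539 and 0.544 CPM. It also passed 2-fold from 0 HPA to Cont 6 HPA, but its log2 ratio with romidepsin was 0.01 (−0.66 to 0.66). Those past 2-fold higher in Cont 6 HPA were 3 of the 12 Stat3 targets and 1 of the 5 interferon targets, beside 1.29% of all symbols. As the lists were chosen with earlier results known, this is a description. *Irf7*, an inducer of interferon genes, was at 5.52, 3.44 and 15.6 CPM. It was the only 1 of 49 listed genes past 2-fold higher from Cont 6 HPA to Rom 6 HPA, beside 1.99% of all symbols. That count is near the share over all symbols and is no result about the lists. From 0 HPA to Rom 6 HPA, 8 of 44 listed genes were past 2-fold higher, with *Myc* and *Cish* among them, and 0 lower, beside 1.68% and 1.98% of all symbols. The 8 include *Lep*, which was chosen with its ratios known, and the lists were chosen with earlier results of these data known. This count too is a description. The abundant targets *Ccnd1* (282, 313 and 393 CPM), *Mcl1* (58.3, 71.7 and 70.5 CPM) and *B2m* (14.8, 14.1 and 14.7 CPM) did not pass in any comparison.

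**Figure D5:**
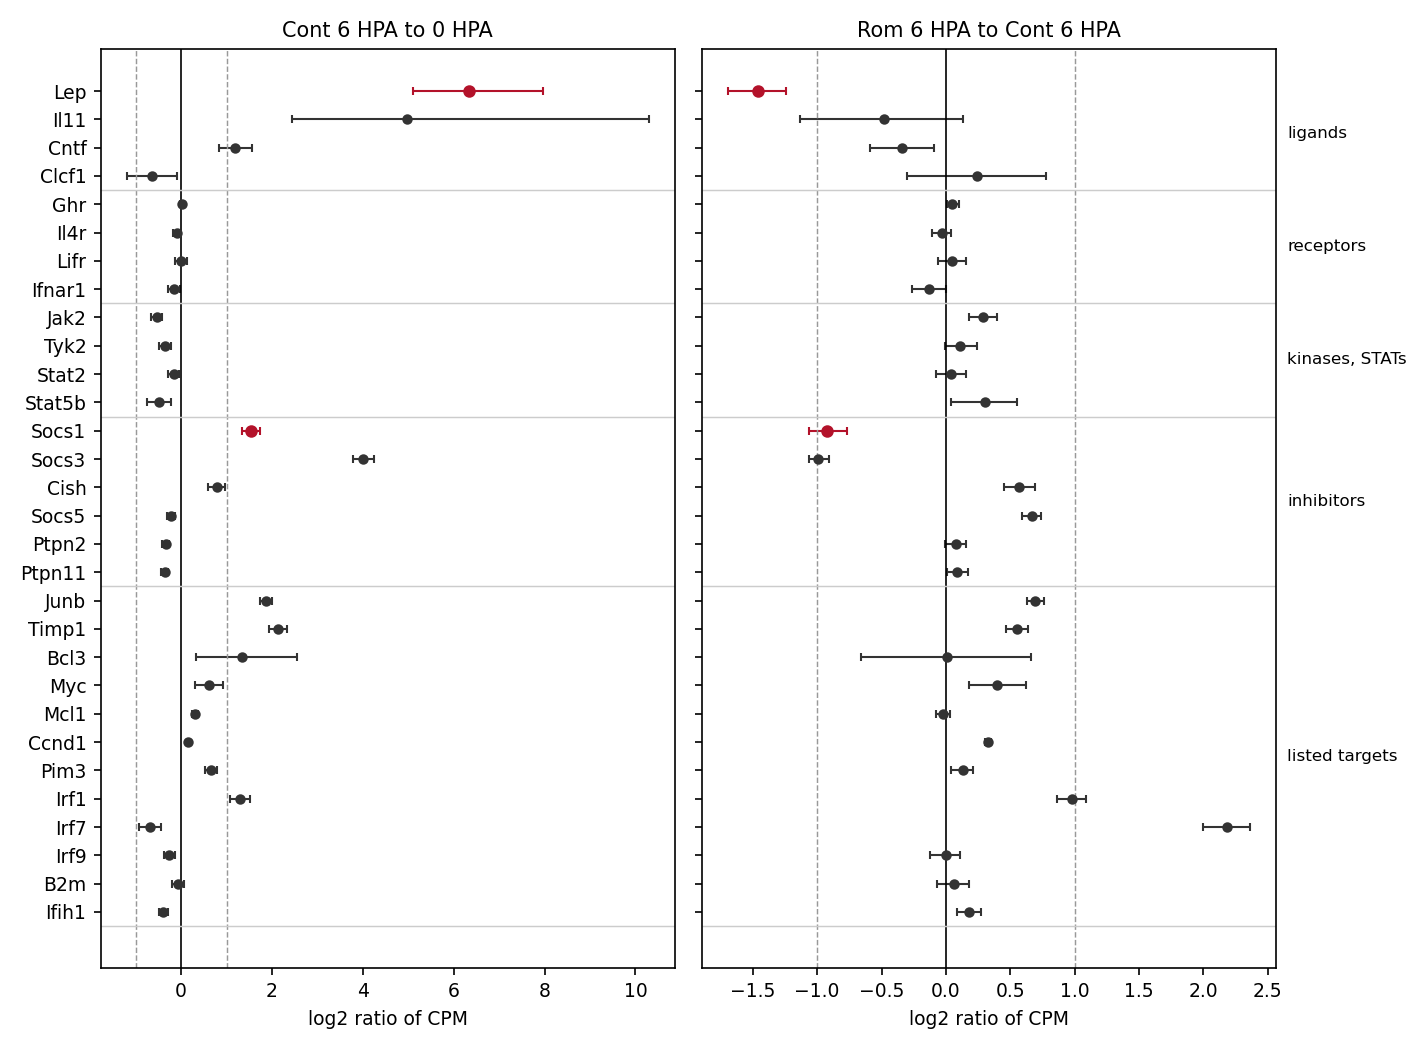
Log2 ratio of CPM between libraries for 30 genes of the lists, with exact 95% intervals; *Lep* and *Socs1* are in red and dashed lines mark 2-fold. *Lep* (6.33), *Il11* (4.97, with an interval of 2.45 to 10.29) and *Socs3* (4.01) were far to the right in the ratio of Cont 6 HPA to 0 HPA. With romidepsin *Lep* (−1.46), *Socs3* (−0.99) and *Socs1* (−0.92) lay on the left while *Irf7* (2.18) lay on the right.

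The genes most like each member were sought over 50 units of library and class with at least 200000 UMIs, by Pearson's r of log2(CPM + 1) among 6123 symbols. These units share libraries and depth, and r is given as a description. Nearest to *Lep* were *Mmp19*, a matrix metalloproteinase (0.82), *Riok3* (0.74), *Trex2* (0.73), *Fosl1*, a subunit of AP-1 (0.72), and *Has2* (0.72). *Fosl1* had 14, 2041 and 944 UMIs across the 3 libraries, and *Mmp19* had 238, 2908 and 877. Nearest to *Socs1* were XB-GENE-5809273 (0.67), *Rrad*, a small GTPase of muscle (0.63), *Socs3* (0.63), *Tnfrsf6b*, a decoy receptor (0.62), and *Sall4*, a transcription factor (0.60). *Rrad* had 59, 3333 and 857 UMIs. *Lep* and *Socs1* reached 0.53 with each other.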

How the data were processed

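Tail tip nuclei were profiled with 10x Genomics chemistry. The deposited values are whole-number UMI counts per feature and nucleus, made by the authors with Cell Ranger (3.0.2 in the file headers, 6.0.0 in the submitters' processing notes) against an axolotl transcript assembly, without normalization. Here UMIs were summed by symbol and scaled to CPM. Sums, ratios and shares have exact 95% Poisson, conditional and binomial intervals, which cover counting error only. Those of sums and ratios treat UMIs as independent, also where a nucleus held several. With library totals of 42537606 to 105765943 UMIs, depth limits rare genes and single nuclei. A library or class at 0 was set at 3 counts.

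For clustering, features in at least 20 nuclei were used, values were log2(1 + x), centred per library, and 3000 dispersed features gave 10 components (20 in deep clusters), 15 neighbours and Leiden clusters at resolution 1 (leidenalg 0.10.2, scikit-learn 1.9.0). A name needed at least 3 markers above 2-fold, after 5 CPM was added, and 2 times as many as any other type. The centring and the naming rule were set after clusters were seen, and rebuilt names may differ from the study's. Doublets were kept, since no removal is named. Named genes were the members, *Has2*, listed genes past 2-fold, the 4 with most UMIs of each list, and the 5 symbols most like each member. Besides cell type markers and *Lepr*, *Il10rb* and *Il6st* were named outside this rule. The members and lists were chosen with earlier results of these data known. Alternatives were other scaling, features, nuclei, thresholds and clustering. Code was tested on simulated data. Gene names in RefSeq were read without coordinates, since the assemblies differ.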

Additional observations from a re-analysis of the deposited data

Results flagged for a closer look

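*Socs1* went in opposite directions in different classes when Rom 6 HPA was set against 0 HPA, and the difference between classes was not tested. The log2 ratio was 1.88 (0.56 to 3.46) in basal epidermis-like nuclei and 1.09 (0.38 to 1.84) in muscle-like nuclei, but −0.91 (−1.76 to −0.09) in fibroblast-like nuclei. In fibroblast-like nuclei the level was 16.1 CPM at 0 HPA and 8.58 CPM in Rom 6 HPA, from 38 and 20 UMIs. By feature, the log2 ratio there was 0.15 (−1.16 to 1.47) for AC_02200013956.1 and −1.73 (−3.08 to −0.56) for AC_02200027047.1. In basal epidermis-like nuclei the ratio rests on 6 and 25 UMIs.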

How the results depend on the processing

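The *Lep* ratios moved by less than counting error under all 8 alternatives run for each, including other scaling, thinning, leaving out the deepest nuclei or shared barcodes, and only deep or only shallow clusters. Among the 8, the setting with only the feature with most UMIs could not change the *Lep* ratios, since *Lep* has 1 feature. The *Socs1* log2 ratio of Cont 6 HPA to 0 HPA was 2.06 with only the feature with most UMIs and 1.94 in deep clusters, and it turned to −0.51 with only the feature with fewer UMIs. That of Rom 6 HPA to 0 HPA was 1.06 with the former feature and turned to −0.80 with the latter. That of Rom 6 HPA to Cont 6 HPA was −0.75 in thinned nuclei, −0.74 as a share of thinned nuclei, −1.35 in deep clusters and −0.29 with the feature with fewer UMIs. Without thinning, shares for *Lep* were 1.54% in Cont 6 HPA and 0.416% in Rom 6 HPA, and those for *Socs1* were 0.752%, 2.82% and 1.12% in the order of the libraries. The *Lep* level in fibroblast-like nuclei of Cont 6 HPA was 43.5 CPM at resolution 2, 29.0 without the deepest nuclei and 10.2 when grouped by marker UMIs, and in Rom 6 HPA 14.4 at resolution 2 and 3.99 by marker UMIs. Grouping by marker UMIs counted most nuclei of each library as fibroblast. *Socs1* in muscle-like nuclei of Cont 6 HPA was 84.8 CPM by marker UMIs. At 1.5-fold, 6 listed genes were lower from 0 HPA to Cont 6 HPA, 5 higher and 3 lower from Cont 6 HPA to Rom 6 HPA, and 13 higher from 0 HPA to Rom 6 HPA. Under median of ratios size factors, 2 listed genes were 2-fold lower with romidepsin. The shares of all symbols under these settings are not given here, so these counts are no result about the lists. Apart from the feature, thinning, depth and threshold settings, whose construction differs, the cause was not tested. The settings with deep or shallow clusters only and with the minor *Socs1* feature were chosen after seeing the data. No paired analysis was possible because each condition has 1 library. That single library per condition is the main limit, since treatment, embryo pool and library cannot be told apart.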

Other observations

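Other inhibitors and interferon factors were read in the classes in which *Lep* and *Socs1* were highest in Cont 6 HPA. In muscle-like nuclei *Irf1* was at 3.05 CPM (1.32 to 6.01) at 0 HPA, at 72.8 (64.2 to 82.3) in Cont 6 HPA and at 49.8 (42.2 to 58.4) in Rom 6 HPA, and values below follow the same order. In fibroblast-like nuclei it was at 2.54 and 8.44 CPM and, in Rom 6 HPA, between 10.5 and 20.9 CPM. Of these classes, muscle-like nuclei had the higher *Irf1* level in both 6 HPA libraries. *Socs3* was at 6.86, 153 (141 to 167) and 73.6 CPM (64.3 to 83.9) in muscle-like nuclei and at 1.69, 96.3 (85.9 to 108) and 27.9 CPM (21.5 to 35.6) in fibroblast-like nuclei. *Cish* had the other order, with 3.81, 11.8 (8.51 to 16.0) and 19.5 CPM in muscle-like nuclei and 9.31, 36.3 and 34.3 CPM in fibroblast-like nuclei. *Irf7* in Rom 6 HPA was alike in both classes, at 21.5 and 20.2 CPM, beside 5.90 and 5.32 CPM in Cont 6 HPA. These levels were not tested between classes or libraries.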
